A study of Mus musculus with 27 samples.

Results

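Hepatic stellate cells (HSCs) isolated 24 h after the end of a 4-week course of carbon tetrachloride (CCl4) were compared with HSCs isolated 7 d after 1 single CCl4 injection. This pair of groups was picked with earlier results of these data known, both being rich in collagen RNA. The libraries, taken by their labels, were 4 labelled chronic 24 h and 4 labelled acute 7 d, 8 of the 27 bulk RNA-seq libraries of the series, and the comparison ran over all genes. Every mouse was a male Balb/c animal that received CCl4 in mineral oil intraperitoneally, at 0.5 µL per g body weight for each injection. Acute 7 d mice were 10 to 12 weeks old when injected, and chronic 24 h mice were 8 to 10 weeks old at the start of semi-weekly injections over 4 weeks. The 2 groups thus differed in the number of injections, in the time since the last one and in age at collection, and the part of each in a difference cannot be told apart. HSCs were obtained by perfusing the liver and sorting on ultraviolet fluorescence, which comes from stored retinoids, and went to RNA without culture. Cells without this fluorescence were thus selected against. Markers of macrophages and hepatocytes nonetheless had counts in the libraries, as given below. The study treats each library as a separate experiment. The other libraries (healthy mice, 24 h and 72 h after 1 injection, 72 h and 14 d after the course) served to estimate the spread and as context.

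HSCs are the vitamin A-storing pericytes of the liver sinusoid. After injury they lose retinoid droplets, assemble actin and myosin fibres that let them contract, and secrete fibrillar collagens, the bulk of scar matrix, which crosslinking enzymes stiffen and matrix proteases remodel. CCl4 is turned into a toxic radical by Cyp2e1 in hepatocytes around the central vein, and HSCs respond both to the dying hepatocytes and to the stiffening matrix, the latter through serum response factor (SRF) and the YAP and TAZ coactivators.

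Chronic 24 h replicates 1 and 2 held 6947304 and 7580709 counts, and chronic 24 h replicates 3 and 4 and all acute 7 d libraries held 11646616 to 13052838. Values from the libraries of higher depth alone (chronic 24 h replicates 3 and 4 against the 4 of acute 7 d) therefore stand beside the calls that they change. Where leaving out a single library ended a call, each such library is named, with the range of the values. All 12 markers of stellate cells had counts in every library. Their summed level was 15308 to 18173 CPM (counts-per-million, TMM-scaled) in chronic 24 h and 19138 to 22125 CPM in acute 7 d.

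Summed markers of macrophages and of hepatocytes were lower on average in chronic 24 h, but for both the libraries of the groups overlapped. The 15 macrophage markers summed to 3653, 4924, 867 and 1643 CPM in chronic 24 h replicates 1 to 4 and to 4732, 7057, 12324 and 7820 CPM in acute 7 d replicates 1 to 4. The 19 hepatocyte markers summed to 4365, 2803, 1296 and 1493 CPM and to 5493, 3498, 3613 and 4152 CPM, in the same order. The mean log2 level of the 15 macrophage markers in each library, their score, was also tried as a term in the fit, and its values stand beside the calls of named genes that it changes. Centred over all 27 libraries, this score was 1.74, 1.93, -0.13 and 0.51 in chronic 24 h replicates 1 to 4. Within chronic 24 h, lower depth thus went with more macrophage RNA. In values from the libraries of higher depth alone, the parts of depth and of macrophage RNA cannot be told apart. No macrophage marker was at 0 in any of the 8 libraries, and at most 2 of the 19 hepatocyte markers were. In bulk RNA, fewer cells of a type and less RNA per cell cannot be told apart.

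Of 18758 genes tested, 620 (3.31%) were higher in chronic 24 h than in acute 7 d and 914 (4.87%) were lower, 8.18% in all. A gene was called at an adjusted p below 0.05 by edgeR's quasi-likelihood test and a change of more than 2-fold, and this rule holds for every call given here. Coordinates are those of GRCm38, and values per library follow the order of the replicates. The 12 highest and 12 lowest genes were picked from genes whose groups did not overlap. For them (among others Acta2, Tagln, Ankrd1, Ccn2, Thbs1, Mmp3, Ccl2, Tnfrsf12a, Bmper and Fbln5) the lack of overlap is a description and no finding. Log2 fold changes are chronic 24 h minus acute 7 d, with their standard error (± SE), and their median over all genes tested was -0.0041. Scaling by library size alone shifted that median to -0.10 and gave 478 higher and 1118 lower genes. The higher share of the calls was then 29.9% in place of 40.4%. Among the higher genes 14 had no count in any acute 7 d library, and among the lower genes 59 had none in any chronic 24 h library. All 4 chronic 24 h libraries lay above all 4 acute 7 d libraries for 9.81% of the genes tested and below them for 11.5%.

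**Figure D1:**
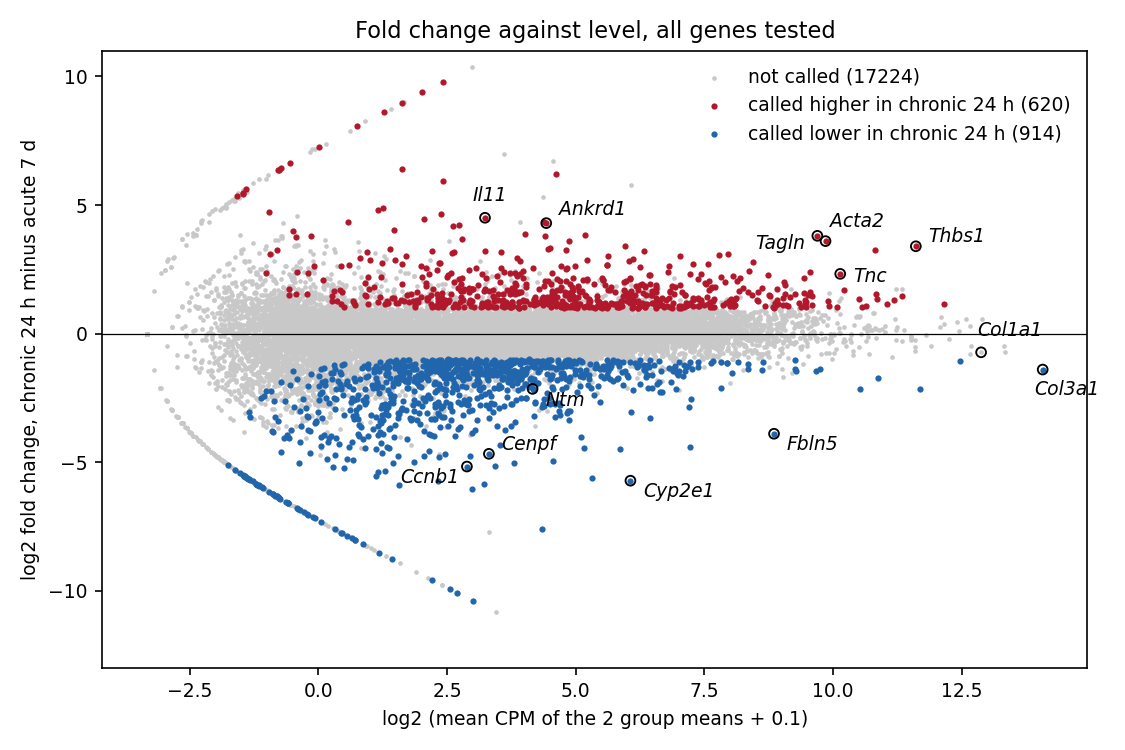
Each point is 1 of the 18758 genes tested, with its level over both groups on the x axis (log2 of CPM) and its log2 fold change on the y axis. Red points are the 620 genes called higher and blue points the 914 called lower, and the curved edges are genes at or near 0 in 1 group. Col3a1, at the right, lies below 0, and Acta2, Tagln, Tnc and Thbs1 lie above it.

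The contractile apparatus was higher in the chronic 24 h cells. Of 29 contractile and actin cytoskeleton genes tested, 22 were higher and 0 were lower, with a median log2 fold change of 1.56. Acta2 (ENSMUSG00000035783, chr19:34241090-34255590), which encodes alpha-smooth muscle actin, was at 289, 1055, 2272 and 2563 CPM in chronic 24 h and 69.8, 151, 141 and 81.4 CPM in acute 7 d. The groups did not overlap, although chronic 24 h replicate 1 held far less Acta2 RNA than replicates 3 and 4 (log2 fold change 3.80 ± 0.76, edgeR adjusted p = 0.0015). Tagln (ENSMUSG00000032085, chr9:45929619-45936058), encoding the actin-binding protein SM22, was at 489, 1521, 1806 and 3011 CPM in chronic 24 h and 129, 101, 168 and 167 CPM in acute 7 d. Again replicate 1 was the lowest of chronic 24 h and lay above all of acute 7 d (log2 fold change 3.60 ± 0.51, edgeR adjusted p = 6.06e-05). Tpm2, a tropomyosin that lies along the actin filament, was at 17.99, 40.1, 124 and 157 CPM in chronic 24 h and 16.3, 14.4, 12.6 and 10.2 CPM in acute 7 d. Its chronic 24 h replicate 1 came close to the highest acute 7 d library (log2 fold change 2.66 ± 0.47, edgeR adjusted p = 0.000494).

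Smooth muscle genes were among them. Myh11, the smooth muscle myosin heavy chain, averaged 54.5 ± 40.4 CPM against 8.83 ± 3.32 CPM (mean ± SD, n = 4 libraries per group, as in all such pairs below). Its lowest chronic 24 h library lay within the acute 7 d range (log2 fold change 2.63 ± 0.48, edgeR adjusted p = 0.000673). Actg2, the enteric smooth muscle actin, was at 0.750, 3.29, 5.79 and 8.72 CPM in chronic 24 h and had no count in any acute 7 d library. It was at least 19.3-fold higher when each acute 7 d library is set to 3 counts (edgeR adjusted p = 0.0109). Of 8 vascular smooth muscle markers 3 were higher, namely Actg2, Myh11 and the potassium channel subunit Kcnab1 (log2 fold change 1.65 ± 0.43, edgeR adjusted p = 0.0112). Summed over these 8 markers, chronic 24 h libraries held 413 to 965 CPM and acute 7 d libraries 621 to 854 CPM, so the list as a whole did not separate the groups. Its lower count was 1 without chronic 24 h replicates 1 and 3 or acute 7 d replicates 1 and 2.

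Some members of the contractile list were not called. Actn4, a crosslinker of actin (log2 fold change 0.82 ± 0.18, edgeR adjusted p = 0.00289), and Mylk, the myosin light chain kinase (log2 fold change 0.95 ± 0.14, edgeR adjusted p = 7.88e-05), had an adjusted p under the threshold and a change under 2-fold. Both passed 2-fold in the libraries of higher depth alone (1.06, edgeR adjusted p = 0.00165, and 1.03, edgeR adjusted p = 0.00112).

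SRF binds the CArG box, searched here as CCWWWWWWGG, where W is A or T. Short stretches of promoter are shown for the members of this list that matched it. They are shown because this list had the largest share of members called among those assembled by function. RefSeq windows of 250 bases before to 50 after a transcription start (GRCm38.p6) matched 11687 of the 18753 gene symbols tested. A CArG box on either strand stood in 5 of 27 windows of the contractile list (18.5%). The share was 2.62% for windows of genes called higher, 1.14% for those called lower and 1.26% for all. Of the 29 contractile genes 24 had a window. Looser forms of the box and sites outside the windows were not searched, so members without a printed stretch may still carry one. The 5 stretches run 5′ to 3′ along the gene's strand, with up to 30 bases on either side of the box, which is in capitals. Each is given with the distance from the box to the start.
Cnn2, chr10:79988514-79988583, plus strand, 56 bases before the start: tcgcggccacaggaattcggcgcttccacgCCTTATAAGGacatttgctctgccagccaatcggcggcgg
Myl6, chr10:128493020-128493089, minus strand, 50 bases before the start: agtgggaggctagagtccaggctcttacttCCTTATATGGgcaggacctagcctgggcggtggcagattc
Myl9, chr2:156775273-156775342, plus strand, 161 bases before the start: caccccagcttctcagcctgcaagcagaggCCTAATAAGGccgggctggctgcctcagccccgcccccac
Vcl, chr14:20929148-20929210, plus strand, 227 bases before the start: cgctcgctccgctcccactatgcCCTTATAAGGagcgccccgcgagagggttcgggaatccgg
Actg1, chr11:120348546-120348615, minus strand, 90 bases before the start: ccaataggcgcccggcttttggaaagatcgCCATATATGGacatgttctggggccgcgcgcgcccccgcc
These 5 genes were named for their box after their values were seen. Of them 4 were called higher, a share near that of the whole list (22 of 29, 75.9%). Cnn2, calponin 2, was one (log2 fold change 1.63 ± 0.28, edgeR adjusted p = 0.000351). Myl9 and Myl6 encode myosin light chains (log2 fold change 2.32 ± 0.52, edgeR adjusted p = 0.00372, and log2 fold change 1.14 ± 0.29, edgeR adjusted p = 0.00943). Vcl encodes vinculin of focal adhesions (log2 fold change 1.87 ± 0.46, edgeR adjusted p = 0.00729). The Myl6 call was lost without chronic 24 h replicate 3 or acute 7 d replicates 2 and 4 (log2 fold change 0.95 to 0.98, edgeR adjusted p = 0.0372 to 0.0433) and with the macrophage score as a term (log2 fold change 0.98, edgeR adjusted p = 0.0501). The Vcl call was lost with the macrophage score as a term (log2 fold change 1.56, edgeR adjusted p = 0.0548). Actg1, cytoplasmic gamma-actin, carries the same kind of box and was not called (log2 fold change 0.15 ± 0.55, edgeR adjusted p = 0.896), with a sign that turned without chronic 24 h replicate 4 (-0.39).

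YAP and TAZ act through TEAD factors, whose site is GGAATG. It stood in 8 of 16 windows (50%) of the YAP and TAZ target list and in 11 of 27 windows (40.7%) of the contractile list. Of windows of genes called higher 18.1% held it, of those called lower 13.5% and of all 12.7%. Ankrd1, a nuclear and sarcomeric ankyrin-repeat protein, has it at both places printed here and Acta2 at 1, with GGAATG in capitals. Distances are to the RefSeq start of the window, which for both genes lies inside the gene span given in this report.
Ankrd1, chr19:36120019-36120084, minus strand, 210 bases before the start: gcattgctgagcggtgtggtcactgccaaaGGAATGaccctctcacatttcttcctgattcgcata
Ankrd1, chr19:36119932-36119997, minus strand, 123 bases before the start: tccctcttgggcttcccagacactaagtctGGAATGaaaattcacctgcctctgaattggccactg
Acta2, chr19:34255484-34255549, minus strand, 146 bases before the start: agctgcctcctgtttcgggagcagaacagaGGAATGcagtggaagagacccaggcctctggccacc
Of the 19 YAP and TAZ targets tested, 7 were higher and 0 lower, with a median log2 fold change of 0.70. Ankrd1 (ENSMUSG00000024803, chr19:36111961-36120099) was at 8.24, 28.4, 83.8 and 42.7 CPM in chronic 24 h and 1.46, 1.39, 2.82 and 2.61 CPM in acute 7 d. All chronic 24 h libraries lay above all acute 7 d libraries, by the widest margin in replicate 3 (log2 fold change 4.30 ± 0.73, edgeR adjusted p = 0.000352). Ccn2, the connective tissue growth factor gene and a known target of YAP, was at 1721, 2331, 5854 and 3165 CPM in chronic 24 h and 45.3, 370.5, 513 and 431 CPM in acute 7 d. Acute 7 d replicate 1 held about an order of magnitude less Ccn2 than the other acute 7 d libraries, and no library crossed between the groups (log2 fold change 3.27 ± 0.85, edgeR adjusted p = 0.0113). Fjx1, a secreted kinase-like protein (log2 fold change 2.15 ± 0.44, edgeR adjusted p = 0.00196), and F3, tissue factor (log2 fold change 1.61 ± 0.34, edgeR adjusted p = 0.00234), had the next widest changes. Amotl2, a junction protein that restrains YAP, did not pass (log2 fold change 0.70 ± 0.27, edgeR adjusted p = 0.0841).

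Other motifs were counted in the same windows. TGANTCA, the AP-1 site, stood in 9.88% of windows of genes called higher, 5.08% of those called lower and 5.52% of all. CACGTG, an E-box, was in 10.9%, 6.35% and 9.44%, respectively, and in 6 of 19 windows of the circadian clock list. The ER stress element, whose last letters can be the first of an E-box, was in 0.141% of all windows and in 7 of 24 windows of the unfolded protein response list. All motifs were searched on both strands, and a match describes the letters of a window only.

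Microtubule genes were also higher in chronic 24 h. Of 10 tubulin genes tested, 5 were higher and 0 lower (median log2 fold change 1.32). Tubb6 was at 580.4, 868, 877 and 1034 CPM in chronic 24 h and 212, 187, 245 and 200.02 CPM in acute 7 d, with no overlap (log2 fold change 1.99 ± 0.20, edgeR adjusted p = 1.7e-06). Tuba1a, Tuba1b, Tubb2a and Tubb4b made up the rest, at log2 fold changes of 1.41, 1.30, 1.52 and 1.04. The Tubb4b call was lost without chronic 24 h replicate 4 or acute 7 d replicate 2 (log2 fold change 0.93 to 0.98, edgeR adjusted p = 0.000741 to 0.00122). Tuba1c was at 277, 319.8, 386 and 411 CPM in chronic 24 h and 133, 109, 156 and 156 CPM in acute 7 d. It did not pass the test over all libraries although its groups did not overlap (log2 fold change 1.33 ± 0.88, edgeR adjusted p = 0.338). It passed among the libraries of higher depth (1.502, edgeR adjusted p = 0.00049), as did Tubb5 (1.43, edgeR adjusted p = 0.00915). Several tubulin genes have near-identical copies and processed pseudogenes among which counting could split reads. Processed pseudogenes as a class had 62 higher and 22 lower calls of 1768 tested, where 3.31% of all genes were higher and 4.87% lower. The higher share of this class was thus close to that of all genes, and the lower share was below it.

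Of 20 integrin and focal adhesion genes, 3 were higher and 0 lower (median 0.57). The count was 1 without chronic 24 h replicate 4 or acute 7 d replicate 1, and 1 with the macrophage score as a term. It was 5 among the libraries of higher depth, where Itgb1, Tln1 (talin) and Tgfb1i1 (the adhesion protein Hic-5) joined Itga5 and Itgav, and Itga9 dropped out. Tln1 passed 2-fold and the threshold also without chronic 24 h replicates 2 and 3 or acute 7 d replicate 4 (log2 fold change 1.001 to 1.04, edgeR adjusted p = 0.0248 to 0.0353) and in the libraries of higher depth alone (log2 fold change 1.07, edgeR adjusted p = 0.0486). Itga5, the alpha chain of the fibronectin receptor, was at 301, 414, 350.1 and 419.7 CPM in chronic 24 h and 88.4, 83.6, 83.6 and 64.8 CPM in acute 7 d. Every library of Itga5 was apart (log2 fold change 2.21 ± 0.29, edgeR adjusted p = 3.01e-05). Itgav pairs with several beta chains to release latent TGF-beta (log2 fold change 1.02 ± 0.33, edgeR adjusted p = 0.0386). The Itgav call was lost without chronic 24 h replicates 3 and 4 or acute 7 d replicates 1, 3 and 4 (log2 fold change 0.80 to 0.98, edgeR adjusted p = 0.0835 to 0.145) and with the macrophage score as a term (log2 fold change 0.47, edgeR adjusted p = 0.341). The Itga9 call was lost without chronic 24 h replicate 4 or acute 7 d replicate 1 (log2 fold change 1.18 to 1.24, edgeR adjusted p = 0.0572 to 0.0629), in the libraries of higher depth alone (log2 fold change 1.53, edgeR adjusted p = 0.0545) and with the macrophage score as a term (log2 fold change 1.16, edgeR adjusted p = 0.0751). Itgb1, the shared beta chain, was not called over all libraries (log2 fold change 0.68 ± 0.26, edgeR adjusted p = 0.0791) and reached 1.09, edgeR adjusted p = 0.00499 among those of higher depth.

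**Figure D2:**
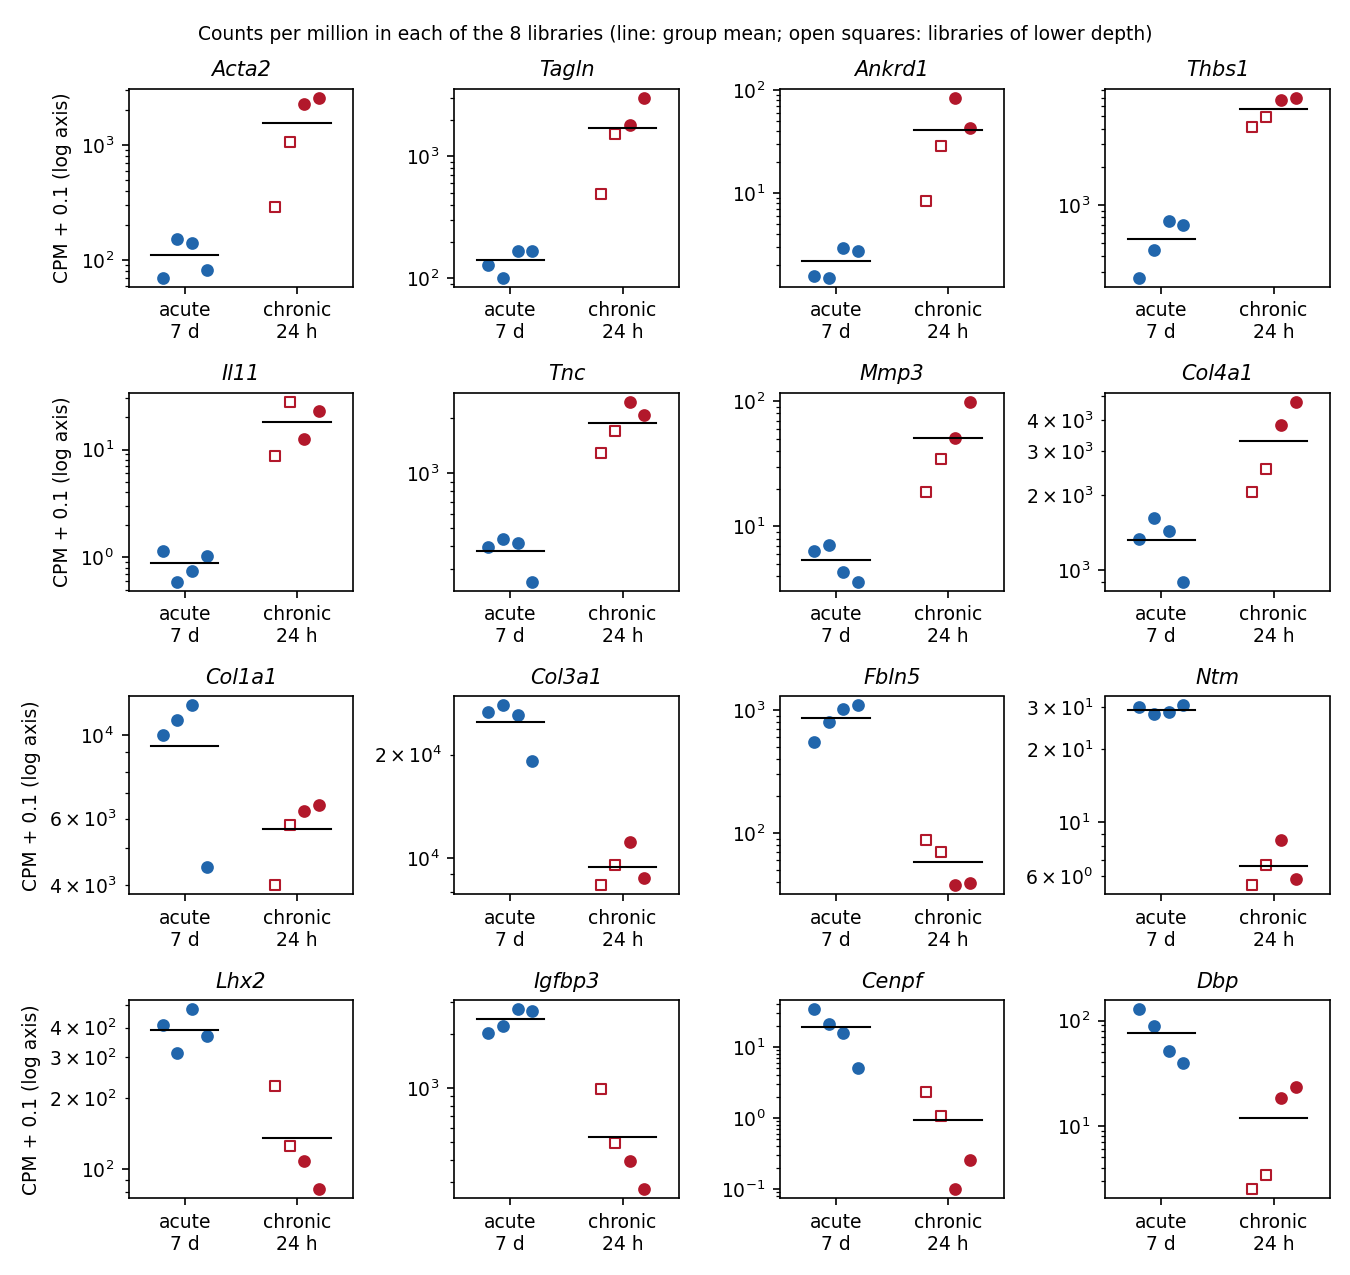
CPM of 16 genes in each of the 8 libraries, on log axes with 0.1 added. Blue points are acute 7 d, red points chronic 24 h, open squares the 2 chronic 24 h libraries of lower depth and lines the group means. Acta2 spans 289 to 2563 CPM within chronic 24 h and 69.8 to 151 CPM within acute 7 d, Ntm and Fbln5 separate the groups in the other direction, and Col1a1 overlaps.

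Collagen RNA did not follow the contractile genes. The 44 collagen genes took 2.42%, 2.85%, 3.40% and 3.24% of all counts in the chronic 24 h libraries and 5.91%, 6.26%, 5.60% and 3.61% in the acute 7 d libraries. Each chronic 24 h library lay below each acute 7 d library, and the healthy libraries were at 0.699% to 0.950%. Both groups were picked as high in collagen RNA, so their place above healthy cells only describes that choice. Of 10 fibril collagens tested, 1 was higher and 2 were lower, with a median log2 fold change of -0.74. Col1a1 (ENSMUSG00000001506, chr11:94936224-94953042), the larger chain of type I collagen, was at 3987, 5779, 6302 and 6524 CPM in chronic 24 h and 10033, 10949.5, 11989 and 4454 CPM in acute 7 d. Acute 7 d replicate 4 fell within the chronic 24 h range, and the difference did not pass (log2 fold change -0.73 ± 0.34, edgeR adjusted p = 0.155). Col1a2, its partner chain, was at 3618, 4206, 6094 and 4909 CPM in chronic 24 h and 9017, 9587, 9468 and 4975 CPM in acute 7 d. It overlapped through the same library, with an adjusted p below 0.05 and a change under 2-fold (log2 fold change -0.81 ± 0.25, edgeR adjusted p = 0.0305). It was called lower with the macrophage score as a term (log2 fold change -1.11, edgeR adjusted p = 0.0047).

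Col3a1 (ENSMUSG00000026043, chr1:45311538-45349706), the type III chain laid down with type I in wounds, was at 8335, 9561, 11153 and 8744 CPM in chronic 24 h and 26672, 27787, 26039 and 19205 CPM in acute 7 d. Every acute 7 d library held more than every chronic 24 h library (log2 fold change -1.40 ± 0.25, edgeR adjusted p = 0.000543). Per kilobase of exon, the mean level of Col3a1 was 963 CPM in chronic 24 h and 2539 CPM in acute 7 d, against 861 and 1426 CPM for Col1a1. Col11a1, a minor chain that starts fibrils and limits their width, was at 0.150, 0.961, 1.23 and 1.20 CPM in chronic 24 h and 8.65, 16.3, 16.02 and 7.36 CPM in acute 7 d. It was lower throughout the chronic 24 h libraries (log2 fold change -3.71 ± 0.74, edgeR adjusted p = 0.00147). Col12a1, which sits on the fibril surface, was the fibril collagen called higher, at 35.8, 76.5, 147 and 125 CPM in chronic 24 h and 49.3, 50.6, 40.7 and 17.1 CPM in acute 7 d. Its libraries overlapped (log2 fold change 1.28 ± 0.37, edgeR adjusted p = 0.02). The Col12a1 call was lost without chronic 24 h replicates 3 and 4 or acute 7 d replicate 4 (log2 fold change 1.005 to 1.11, edgeR adjusted p = 0.0659 to 0.0921) and with the macrophage score as a term (log2 fold change 0.78, edgeR adjusted p = 0.178).

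Among 14 network and other collagens tested 4 were higher and 0 lower (median -0.05). The count was 2 without chronic 24 h replicates 3 and 4 or acute 7 d replicate 4, and 1 with the macrophage score as a term in the fit. Col4a1, a chain of basement membrane collagen, was at 2059, 2550.2, 3829.7 and 4747 CPM in chronic 24 h and 1339, 1629, 1436 and 902 CPM in acute 7 d. Chronic 24 h replicates 3 and 4 were the highest, and no library overlapped (log2 fold change 1.31 ± 0.24, edgeR adjusted p = 0.000805). The Col4a1 call was lost with the macrophage score as a term (log2 fold change 0.94, edgeR adjusted p = 0.00668). Col8a1, a short-chain collagen of vessel walls, was at 277, 307, 463 and 699.8 CPM in chronic 24 h and 81.8, 116, 88.8 and 86.6 CPM in acute 7 d, likewise apart (log2 fold change 2.22 ± 0.28, edgeR adjusted p = 2.26e-05). Col4a2 pairs with Col4a1 (log2 fold change 1.02 ± 0.19, edgeR adjusted p = 0.000946). The Col4a2 call was lost without chronic 24 h replicates 3 and 4 or acute 7 d replicates 1 and 4 (log2 fold change 0.87 to 0.98, edgeR adjusted p = 0.00393 to 0.00646) and with the macrophage score as a term (log2 fold change 0.84, edgeR adjusted p = 0.00836). Col15a1, a collagen near basement membranes, was higher (log2 fold change 1.12 ± 0.34, edgeR adjusted p = 0.0282). The Col15a1 call was lost without chronic 24 h replicates 2, 3 and 4 or acute 7 d replicate 4 (log2 fold change 0.88 to 1.08, edgeR adjusted p = 0.0575 to 0.091), in the libraries of higher depth alone (log2 fold change 1.24, edgeR adjusted p = 0.0736) and with the macrophage score as a term (log2 fold change 0.92, edgeR adjusted p = 0.107). Col6a1, a beaded-filament collagen, went the other way by less than 2-fold (log2 fold change -0.70 ± 0.15, edgeR adjusted p = 0.00272).

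**Figure D3:**
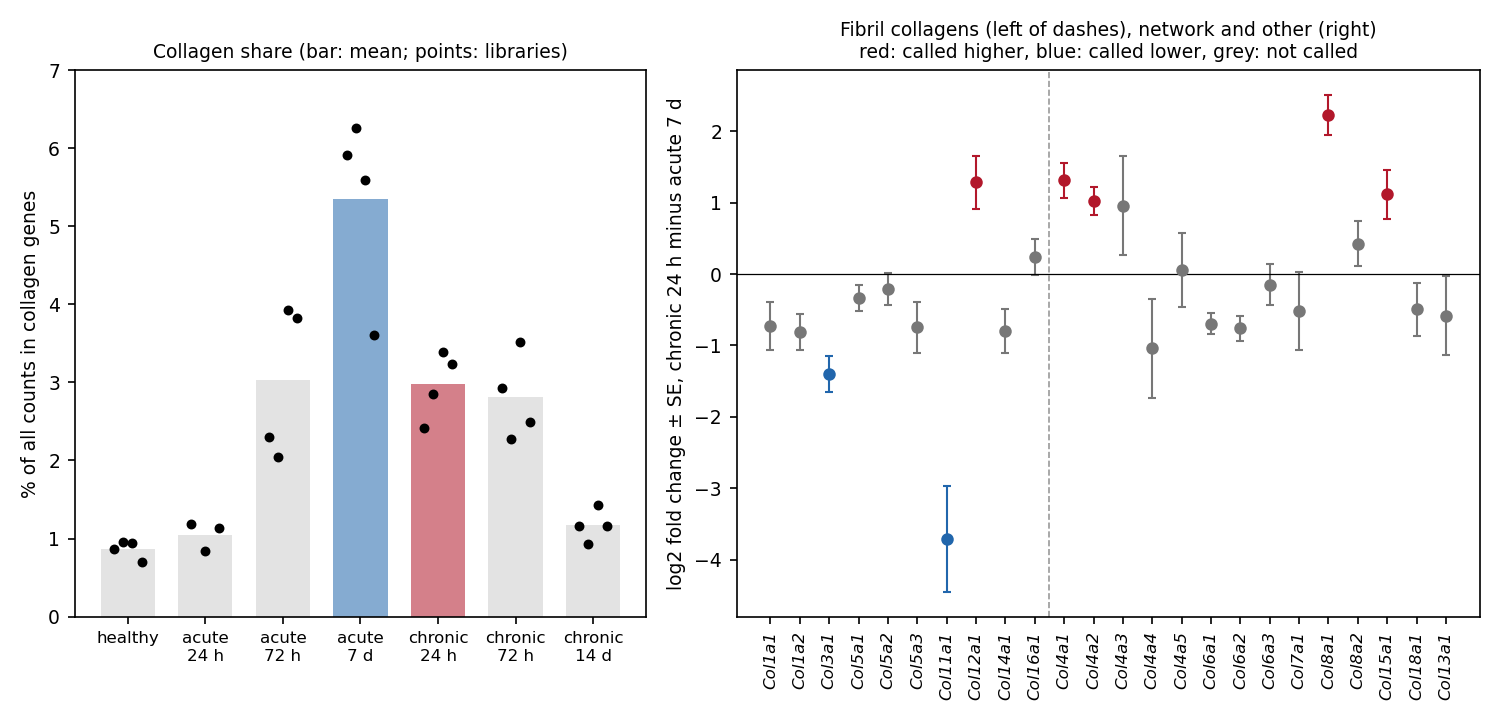
Left, the share of all counts in 44 collagen genes in each library of the 7 groups (bars are means that start at 0, points are libraries). Acute 7 d libraries lie between 3.61% and 6.26% and chronic 24 h libraries between 2.42% and 3.40%. Right, log2 fold change ± SE for the tested members of the fibril and network lists, in which Col3a1 and Col11a1 are called lower and Col12a1, Col4a1, Col4a2, Col8a1 and Col15a1 higher.

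Of 25 collagen maturation genes 2 were higher (8%, against 3.31% of all genes) and 0 lower (median 0.35). The lower count was 1 without chronic 24 h replicate 4 or acute 7 d replicate 4. Adamts14, a procollagen N-propeptidase, was at 73.00, 91.01, 87.00 and 88.2 CPM in chronic 24 h and 25.6, 30.7, 40.7 and 43.5 CPM in acute 7 d, without overlap (log2 fold change 1.27 ± 0.19, edgeR adjusted p = 0.000112). Loxl2, a crosslinking amine oxidase, was at 90.7, 199, 246 and 294 CPM in chronic 24 h and 174, 92.8, 50.6 and 46.1 CPM in acute 7 d. Acute 7 d replicates 1 and 2 fell within the chronic 24 h range (log2 fold change 1.19 ± 0.38, edgeR adjusted p = 0.0362). The Loxl2 call was lost without chronic 24 h replicates 2, 3 and 4 or acute 7 d replicates 2, 3 and 4 (log2 fold change 0.95 to 1.21, edgeR adjusted p = 0.0569 to 0.137) and with the macrophage score as a term (log2 fold change 0.75, edgeR adjusted p = 0.146). Lox, the founding member of that family, was at 276, 412, 1051 and 786 CPM in chronic 24 h and 482, 445, 376 and 216 CPM in acute 7 d, overlapping and not called (log2 fold change 0.73 ± 0.42, edgeR adjusted p = 0.256). P4hb, the beta subunit of prolyl 4-hydroxylase, was not called either (log2 fold change 0.68 ± 0.27, edgeR adjusted p = 0.0857).

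Matrix glycoproteins had calls in both directions. Of 37 tested, 5 were higher (13.5%, against 3.31% of all genes) and 3 lower (8.11%, against 4.87%), with a median of -0.14. The other 29 were not called. Thbs1 (ENSMUSG00000040152, chr2:118111876-118127133), thrombospondin 1, which frees TGF-beta from its latent complex, was at 4111, 4962, 6723 and 6968 CPM in chronic 24 h and 267, 447, 748 and 701 CPM in acute 7 d. The lowest chronic 24 h library exceeded the highest acute 7 d library several times over (log2 fold change 3.40 ± 0.34, edgeR adjusted p = 1.7e-06). An antisense gene overlaps Thbs1, as others do Tagln, Ccn2, Ccl2, Col4a1, Col4a2, Timp1 and Dbp, and without strand their reads cannot be told apart. Tnc, tenascin C, a glycoprotein of provisional matrix, was at 1282, 1693, 2453 and 2079 CPM in chronic 24 h and 395, 437, 414 and 256 CPM in acute 7 d, also fully apart (log2 fold change 2.32 ± 0.39, edgeR adjusted p = 0.000305). Has1, a hyaluronan synthase, averaged 101 ± 12.02 CPM against 24.2 ± 15.9 CPM (log2 fold change 2.06 ± 0.44, edgeR adjusted p = 0.00278). Tnfaip6, which links hyaluronan chains, averaged 205 ± 70.2 CPM against 72.04 ± 34.9 CPM (log2 fold change 1.51 ± 0.33, edgeR adjusted p = 0.00278). Vcan, the proteoglycan versican, was at 82.3, 69.6, 60.9 and 48.6 CPM in chronic 24 h and 44.7, 32.4, 25.2 and 12.8 CPM in acute 7 d. Its groups were apart by a small margin (log2 fold change 1.18 ± 0.33, edgeR adjusted p = 0.0183). The Vcan call was lost without acute 7 d replicates 3 and 4 (log2 fold change 0.94 to 1.12, edgeR adjusted p = 0.0524 to 0.0606), in the libraries of higher depth alone (log2 fold change 0.91, edgeR adjusted p = 0.165) and with the macrophage score as a term (log2 fold change 0.97, edgeR adjusted p = 0.0515).

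In the other direction, Fbln5 (ENSMUSG00000021186, chr12:101746565-101819055), fibulin 5, which tethers elastin to microfibrils, was at 87.1, 69.7, 37.2 and 38.9 CPM in chronic 24 h and 552, 799, 1016 and 1094 CPM in acute 7 d. Its acute 7 d libraries were all above its chronic 24 h libraries by a wide gap (log2 fold change -3.90 ± 0.42, edgeR adjusted p = 2.93e-06). Ogn, osteoglycin, a small leucine-rich proteoglycan, averaged 17.1 ± 3.64 CPM against 58.8 ± 11.4 CPM (log2 fold change -1.78 ± 0.30, edgeR adjusted p = 0.000325). Spp1, osteopontin, which macrophages also make, averaged 862 ± 308 CPM against 2881 ± 1732 CPM and overlapped (log2 fold change -1.74 ± 0.42, edgeR adjusted p = 0.00612). The abundant proteoglycan genes Dcn and Lum were not called (edgeR adjusted p = 0.202 and edgeR adjusted p = 0.0568).

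Matrix proteases and their inhibitors were higher at 10 of 31 tested, against 3.31% of all genes, and 1 was lower (median 0.44). The lower count was 0 without acute 7 d replicate 4, 2 without chronic 24 h replicate 2 and 3 without chronic 24 h replicate 1, and 0 with the macrophage score as a term. Mmp3, stromelysin 1, was at 18.9, 34.3, 50.9 and 98.96 CPM in chronic 24 h and 6.23, 7.05, 4.27 and 3.53 CPM in acute 7 d, without overlap (log2 fold change 3.27 ± 0.56, edgeR adjusted p = 0.000357). Plau, the urokinase that activates plasmin, was at 36.7, 91.7, 71.2 and 41.5 CPM in chronic 24 h and 8.73, 8.20, 23.99 and 14.9 CPM in acute 7 d (log2 fold change 2.11 ± 0.39, edgeR adjusted p = 0.000745). Both proteases were thus higher in every chronic 24 h library than in any of acute 7 d. Timp1, an inhibitor of metalloproteases used as a marker of HSC activation, was at 172, 128, 152 and 143 CPM in chronic 24 h and 86.8, 53.97, 22.7 and 11.96 CPM in acute 7 d. Its groups did not overlap but its SE was wide, and it did not pass (log2 fold change 1.76 ± 0.80, edgeR adjusted p = 0.143). Mmp10, stromelysin 2, was at 0, 4.53, 13.9 and 23.1 CPM in chronic 24 h and 0, 0, 0.644 and 0 CPM in acute 7 d (log2 fold change 5.93 ± 1.62, edgeR adjusted p = 0.0197). The Mmp10 call was lost without chronic 24 h replicate 4 or acute 7 d replicates 1, 2 and 4 (log2 fold change 5.15 to 5.54, edgeR adjusted p = 0.0539 to 0.0693) and with the macrophage score as a term (log2 fold change 5.11, edgeR adjusted p = 0.144). The member called lower was the membrane protease Mmp15 (log2 fold change -1.13 ± 0.29, edgeR adjusted p = 0.0103). The Mmp15 call was lost without acute 7 d replicate 4 (log2 fold change -0.96, edgeR adjusted p = 0.0397), in the libraries of higher depth alone (log2 fold change -1.05, edgeR adjusted p = 0.0988) and with the macrophage score as a term (log2 fold change -1.02, edgeR adjusted p = 0.0514).

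Secreted signals included several of the widest changes. Of 31 cytokines and inflammatory mediators, 9 were higher and 1 lower (median 0.89). Il11 (ENSMUSG00000004371, chr7:4772373-4782859), a fibroblast-derived cytokine of the IL-6 family, was at 8.69, 27.7, 12.5 and 22.6 CPM in chronic 24 h and 1.05, 0.492, 0.644 and 0.920 CPM in acute 7 d. The acute 7 d libraries were near 1 CPM or below and all chronic 24 h libraries above 8 CPM (log2 fold change 4.50 ± 0.51, edgeR adjusted p = 5.24e-06). Lif, another cytokine of that family, was at 7.20, 24.6, 25.7 and 26.3 CPM in chronic 24 h and 1.21, 2.13, 1.93 and 3.91 CPM in acute 7 d. Chronic 24 h replicate 1 was the lowest of its group yet above acute 7 d (log2 fold change 3.18 ± 0.70, edgeR adjusted p = 0.00304). Ccl2, the chemokine that draws monocytes, was at 156, 757, 473 and 388 CPM in chronic 24 h and 54.3, 36.99, 98.8 and 19.9 CPM in acute 7 d, apart in spite of a wide spread (log2 fold change 3.08 ± 0.82, edgeR adjusted p = 0.0126). Tnfrsf12a, the TWEAK receptor Fn14, was at 48.7, 101, 125 and 179 CPM in chronic 24 h and 4.77, 8.12, 10.7 and 18.7 CPM in acute 7 d (log2 fold change 3.42 ± 0.52, edgeR adjusted p = 0.000143). The member called lower was Cxcl12, a chemokine of resting HSCs, at 2626, 3557, 5158 and 3326 CPM in chronic 24 h and 7618, 7482, 6184 and 9323 CPM in acute 7 d. No library of Cxcl12 overlapped (log2 fold change -1.06 ± 0.22, edgeR adjusted p = 0.00235). The Cxcl12 call was lost without chronic 24 h replicate 1 or acute 7 d replicate 4 (log2 fold change -0.95 to -0.93, edgeR adjusted p = 0.00874 to 0.00989) and in the libraries of higher depth alone (log2 fold change -0.88, edgeR adjusted p = 0.0549).

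In the TGF-beta, activin and BMP list 4 of 31 genes were higher and 0 lower (median 0.30). The lower count was 1 without chronic 24 h replicate 1. Bmper, a secreted BMP-binding protein, was at 89.2, 122, 171 and 199 CPM in chronic 24 h and 13.3, 15.01, 22.4 and 12.3 CPM in acute 7 d. No library overlapped and its relative error was small (log2 fold change 3.21 ± 0.24, edgeR adjusted p = 1.62e-08). Tgfb3, a TGF-beta ligand, was at 299.8, 386, 587 and 643 CPM in chronic 24 h and 81.8, 98.3, 136 and 114 CPM in acute 7 d, fully apart (log2 fold change 2.16 ± 0.27, edgeR adjusted p = 2.14e-05). Inhba, the activin A subunit, averaged 119.8 ± 57.4 CPM against 32.8 ± 5.26 CPM (log2 fold change 1.87 ± 0.30, edgeR adjusted p = 0.000203). Fstl3, an activin-binding inhibitor, averaged 121 ± 37.4 CPM against 16.3 ± 3.60 CPM (log2 fold change 2.90 ± 0.94, edgeR adjusted p = 0.04). The Fstl3 call was lost without chronic 24 h replicates 2, 3 and 4 or acute 7 d replicates 1, 2, 3 and 4 (log2 fold change 2.69 to 3.01, edgeR adjusted p = 0.0578 to 0.0935) and with the macrophage score as a term (log2 fold change 3.12, edgeR adjusted p = 0.0591). Gdf2, the ligand BMP9 made by HSCs, was not called (log2 fold change -0.54 ± 0.19, edgeR adjusted p = 0.0545).

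For the PDGF, VEGF, HGF and IGF list the count was 2 higher and 2 lower of 22 (median -0.06). Each was 9.09%, against 3.31% higher and 4.87% lower of all genes. With the macrophage score as a term 0 were higher. The higher count was 1 without chronic 24 h replicate 4 or acute 7 d replicate 1, and the lower count 1 without chronic 24 h replicate 2 or acute 7 d replicate 4. Igfbp3, which binds insulin-like growth factors, was at 986, 499, 394 and 275 CPM in chronic 24 h and 2017, 2221, 2736 and 2675 CPM in acute 7 d. Every chronic 24 h library held less (log2 fold change -2.16 ± 0.32, edgeR adjusted p = 0.00011). Pdgfrb, the PDGF receptor that drives HSC division, was at 2342, 1978, 2018 and 2264 CPM in chronic 24 h and 784, 1133, 1324 and 867 CPM in acute 7 d, apart in all libraries (log2 fold change 1.07 ± 0.23, edgeR adjusted p = 0.00268). The Pdgfrb call was lost without acute 7 d replicates 1 and 4 (log2 fold change 0.94 to 0.99, edgeR adjusted p = 0.0114 to 0.0135) and with the macrophage score as a term (log2 fold change 0.95, edgeR adjusted p = 0.0142). Pdgfd, a ligand of that receptor, was lower (log2 fold change -1.08 ± 0.30, edgeR adjusted p = 0.0159). The Pdgfd call was lost without chronic 24 h replicate 2 or acute 7 d replicate 4 (log2 fold change -0.93 to -0.77, edgeR adjusted p = 0.0578 to 0.0881) and in the libraries of higher depth alone (log2 fold change -1.03, edgeR adjusted p = 0.116). Fgf2, a growth factor for fibroblasts, was higher (log2 fold change 1.27 ± 0.33, edgeR adjusted p = 0.0116). The Fgf2 call was lost without chronic 24 h replicate 4 (log2 fold change 0.96, edgeR adjusted p = 0.0723) and with the macrophage score as a term (log2 fold change 0.90, edgeR adjusted p = 0.0959).

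Fast-responding transcription factors were partly higher than in acute 7 d. Of 23 immediate early genes 5 were higher and 0 lower (median 0.67). The count was 3 without acute 7 d replicate 1, and 8 with the macrophage score as a term. Summed over the list, chronic 24 h averaged 49124 CPM and acute 7 d 35199 CPM (29618, 26422, 39617 and 45139). The other groups averaged from 44434 CPM at acute 72 h to 59948 CPM in healthy cells, so acute 7 d had the lowest mean. Fosl1, the AP-1 subunit Fra-1, was at 5.10, 17.02, 6.23 and 15.9 CPM in chronic 24 h and 0.566, 1.07, 1.13 and 2.07 CPM in acute 7 d (log2 fold change 3.18 ± 0.64, edgeR adjusted p = 0.00169). The orphan nuclear receptors Nr4a3 and Nr4a2 averaged 108 ± 23.8 CPM against 25.02 ± 10.5 CPM and 146 ± 35.2 CPM against 41.6 ± 21.1 CPM. All their chronic 24 h libraries lay above acute 7 d (log2 fold change 2.11 ± 0.44, edgeR adjusted p = 0.00227, and log2 fold change 1.81 ± 0.36, edgeR adjusted p = 0.0013), and Nr4a3 missed the threshold in the libraries of higher depth alone (1.79, edgeR adjusted p = 0.0537). Nr4a1 had the smallest change of the 5 (log2 fold change 1.16 ± 0.24, edgeR adjusted p = 0.002). The Nr4a1 call was lost without acute 7 d replicates 1 and 2 (log2 fold change 0.98 to 0.998, edgeR adjusted p = 0.01 to 0.0112) and in the libraries of higher depth alone (log2 fold change 0.85, edgeR adjusted p = 0.0712). Fosb, an AP-1 subunit, was higher (log2 fold change 1.26 ± 0.29, edgeR adjusted p = 0.00459). The Fosb call was lost without acute 7 d replicate 1 (log2 fold change 0.94, edgeR adjusted p = 0.00361). Fos and Egr1, which cell isolation itself is known to raise, were not called (log2 fold change 0.56 ± 0.16, edgeR adjusted p = 0.022, and log2 fold change 0.59 ± 0.58, edgeR adjusted p = 0.553). Klf6, a zinc finger factor of activated HSCs, was at 711, 798, 551 and 541 CPM in chronic 24 h and 249, 199, 454 and 454 CPM in acute 7 d, apart but under 2-fold (log2 fold change 0.94 ± 0.29, edgeR adjusted p = 0.0304). Klf6 passed 2-fold without chronic 24 h replicates 3 and 4 or acute 7 d replicates 3 and 4 (log2 fold change 1.01 to 1.11, edgeR adjusted p = 0.022 to 0.0426) and with the macrophage score as a term (log2 fold change 1.20, edgeR adjusted p = 0.0114).

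Biosynthetic lists had medians above that of all genes. Of 26 ribosome biogenesis genes 11 were higher and 0 lower (median 0.99). That count was 7 with scaling by library size alone and 7 without chronic 24 h replicate 4. Gnl3, nucleostemin, was at 31.03, 48.9, 53.3 and 58.2 CPM in chronic 24 h and 16.3, 17.6, 16.3 and 20.8 CPM in acute 7 d (log2 fold change 1.44 ± 0.20, edgeR adjusted p = 5.58e-05). Ncl, nucleolin, was apart by less than 2-fold (log2 fold change 0.82 ± 0.14, edgeR adjusted p = 0.000449). Of 21 cholesterol synthesis genes 6 were higher and 0 lower (median 0.79). The count was 3 without chronic 24 h replicate 4, and 9 among the libraries of higher depth. Among those called were Sqle, squalene epoxidase, and Srebf2, the master regulator of the pathway (log2 fold change 1.83 ± 0.42, edgeR adjusted p = 0.00432, and log2 fold change 1.53 ± 0.23, edgeR adjusted p = 0.000119).

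In the glycolysis and hypoxia list 4 of 22 were higher and 1 lower (median 0.66). Hk2, the inducible hexokinase, was at 54.4, 61.5, 98.4 and 86.2 CPM in chronic 24 h and 16.3, 19.1, 17.4 and 17.9 CPM in acute 7 d (log2 fold change 2.09 ± 0.22, edgeR adjusted p = 2.66e-06). Hk1, another hexokinase, Aldoa, the muscle aldolase, and Eno2, an enolase, were the others, at log2 fold changes of 1.17, 1.07 and 1.000. The Hk1 call (edgeR adjusted p = 0.0437) was lost without chronic 24 h replicates 1, 2, 3 and 4 or acute 7 d replicates 1, 3 and 4 (log2 fold change 1.03 to 1.22, edgeR adjusted p = 0.0594 to 0.127) and in the libraries of higher depth alone (log2 fold change 1.11, edgeR adjusted p = 0.154). The Aldoa call was lost without acute 7 d replicate 4 (log2 fold change 0.97, edgeR adjusted p = 0.0115). The Eno2 call, at the 2-fold limit, was lost without chronic 24 h replicates 3 and 4 or acute 7 d replicates 3 and 4 (log2 fold change 0.77 to 0.999, edgeR adjusted p = 0.00943 to 0.0254) and with the macrophage score as a term (log2 fold change 0.88, edgeR adjusted p = 0.0185). The count was 1 without acute 7 d replicate 4 and 2 without chronic 24 h replicates 3 and 4 or acute 7 d replicate 3, and 1 with scaling by library size alone. Pdk1, a kinase that restrains pyruvate oxidation, was the member called lower (log2 fold change -1.17 ± 0.38, edgeR adjusted p = 0.0367). The Pdk1 call was lost without chronic 24 h replicates 2, 3 and 4 or acute 7 d replicates 1 and 2 (log2 fold change -1.24 to -0.998, edgeR adjusted p = 0.0559 to 0.12), in the libraries of higher depth alone (log2 fold change -1.40, edgeR adjusted p = 0.108) and with the macrophage score as a term (log2 fold change -1.18, edgeR adjusted p = 0.0577).

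In the unfolded protein response list 3 of 28 were higher and 0 lower (median 0.54). Lrrc59, a ribosome-binding ER membrane protein, was at 593, 813, 763 and 788 CPM in chronic 24 h and 220.4, 216, 248 and 211 CPM in acute 7 d (log2 fold change 1.72 ± 0.12, edgeR adjusted p = 1.62e-08). The chaperones Hyou1 (log2 fold change 2.38 ± 0.63, edgeR adjusted p = 0.0122) and Hspa5, or BiP (log2 fold change 1.35 ± 0.33, edgeR adjusted p = 0.00726), were the others. Of 20 ATF4 target and serine synthesis genes 5 were higher and 1 lower (median 0.47). Mthfd2, a mitochondrial folate enzyme, had the widest change among them (log2 fold change 2.25 ± 0.39, edgeR adjusted p = 0.000451). The amino acid transporters Slc7a1, Slc7a11 and Slc7a5 were higher, at log2 fold changes of 1.66, 1.46 and 1.25, as was the serine synthesis enzyme Psat1 (1.09). The Psat1 call was lost without chronic 24 h replicates 2 and 4 or acute 7 d replicate 4 (log2 fold change 0.96 to 1.002, edgeR adjusted p = 0.0506 to 0.0595) and in the libraries of higher depth alone (log2 fold change 0.97, edgeR adjusted p = 0.101). Cth, which makes cysteine and is abundant in hepatocytes, was the member called lower (log2 fold change -2.82 ± 0.85, edgeR adjusted p = 0.0269). The Cth call was lost without chronic 24 h replicates 3 and 4 or acute 7 d replicate 1 (log2 fold change -2.50 to -2.49, edgeR adjusted p = 0.0731 to 0.0894).

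Among 22 interferon-stimulated genes tested 1, Bst2, was higher (log2 fold change 1.19 ± 0.34, edgeR adjusted p = 0.0189) and 0 were lower (median 0.33). That higher share, 4.55%, was near the 3.31% of all genes. The Bst2 call was lost without acute 7 d replicate 2 (log2 fold change 1.10, edgeR adjusted p = 0.0588) and in the libraries of higher depth alone (log2 fold change 1.04, edgeR adjusted p = 0.0722). The count was 0 without acute 7 d replicate 2 and 2 without chronic 24 h replicates 3 and 4 or acute 7 d replicate 1, and 2 with the macrophage score as a term. Among the libraries of higher depth 0 were higher and 5 lower. These were Ifit3, Ifit3b, Gbp2, Gbp3 and Gbp7, at log2 fold changes of -1.20, -1.31, -1.03, -1.11 and -1.08. Over all libraries their values were -0.41, -0.56, 0.80, -0.24 and -0.10, so only Gbp2 changed sign. Gbp2 was at 313, 48.3, 31.6 and 28.2 CPM in chronic 24 h replicates 1 to 4. Without replicate 1 its log2 fold change was -0.74 (edgeR adjusted p = 0.0324). The whole list summed to 3220, 2120, 1429 and 1192 CPM in these libraries. The parts of depth and of this 1 library were not tested.

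Of 21 p53 targets and cell cycle inhibitors 0 were higher and 2 lower (9.52%, against 4.87% of all genes, median -0.51). The lower count was 6 in the libraries of higher depth and 1 without chronic 24 h replicate 4 or acute 7 d replicate 3, 4 without acute 7 d replicate 2 and 5 without chronic 24 h replicate 1. Trp53inp1 and Bbc3 act in cell death downstream of p53 (log2 fold change -1.34 ± 0.38, edgeR adjusted p = 0.017, and log2 fold change -1.05 ± 0.26, edgeR adjusted p = 0.00764). The Trp53inp1 call was lost without chronic 24 h replicates 2 and 4 (log2 fold change -1.28 to -1.19, edgeR adjusted p = 0.0525 to 0.0585). The Bbc3 call was lost without chronic 24 h replicate 3 or acute 7 d replicate 3 (log2 fold change -0.95 to -0.86, edgeR adjusted p = 0.0326 to 0.0372) and with the macrophage score as a term (log2 fold change -0.87, edgeR adjusted p = 0.0448). Cdkn1a, the cell cycle inhibitor p21, was at 7.49, 7.28, 3.24 and 4.16 CPM in chronic 24 h and 11.1, 5.58, 8.13 and 9.50 CPM in acute 7 d, overlapping and not called (log2 fold change -0.65 ± 0.72, edgeR adjusted p = 0.603).

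Genes of cell division were lower in chronic 24 h than in acute 7 d. Of 33 DNA replication and mitosis genes, 16 were lower and 1 was higher, with a median log2 fold change of -1.97. Summed over the list, chronic 24 h averaged 271 CPM (245 to 326) and acute 7 d 490 CPM (304 to 633). The means elsewhere, without a test, were 308 CPM in healthy cells, 219 CPM at acute 24 h and 1582.5 CPM at acute 72 h. After the course they were 264 CPM at 72 h and 221 CPM at 14 d, so acute 7 d was the raised group of the pair. Ccnb2, a cyclin of mitosis, had no count in any chronic 24 h library and was at 30.4, 15.2, 14.7 and 3.60 CPM in acute 7 d. It was at least 46.8-fold lower when each chronic 24 h library is set to 3 counts (edgeR adjusted p = 7.88e-05). Ccnb1, the cyclin that opens mitosis, was at 0.600, 0.549, 0 and 0.480 CPM in chronic 24 h and 26.4, 18.9, 8.77 and 2.76 CPM in acute 7 d (log2 fold change -5.17 ± 0.81, edgeR adjusted p = 0.000172). Cenpf, a kinetochore protein, was at 2.25, 0.961, 0 and 0.160 CPM in chronic 24 h and 33.8, 20.9, 15.7 and 4.98 CPM in acute 7 d (log2 fold change -4.68 ± 0.74, edgeR adjusted p = 0.000176). Bub1b, a checkpoint kinase, was at 0.600, 0.549, 0 and 0.320 CPM in chronic 24 h and 14.7, 13.04, 8.05 and 2.53 CPM in acute 7 d (log2 fold change -4.79 ± 1.01, edgeR adjusted p = 0.00231). Acute 7 d replicate 4 was the lowest of its group for all 4 of these genes, and still above every chronic 24 h library. The member called higher was Ccnd1, cyclin D1, which acts at entry into the cycle (log2 fold change 1.26 ± 0.27, edgeR adjusted p = 0.00247). The replication licensing genes Mcm2 and Mcm4 were not called (log2 fold change 0.67 ± 0.17, edgeR adjusted p = 0.00788, under 2-fold, and log2 fold change -0.38 ± 0.16, edgeR adjusted p = 0.117).

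Of 30 genes of the quiescent HSC 8 were lower, against 4.87% of all genes, and 2 were higher (median -0.53). Ntm, a neuronal adhesion molecule of the HSC, was at 5.40, 6.59, 8.33 and 5.76 CPM in chronic 24 h and 29.8, 27.8, 28.5 and 30.3 CPM in acute 7 d. Its libraries lay close together within each group and did not overlap (log2 fold change -2.15 ± 0.26, edgeR adjusted p = 1.56e-05). Lhx2, a homeobox factor that restrains HSC activation, was at 225, 125, 108 and 81.9 CPM in chronic 24 h and 411, 311, 479.5 and 369 CPM in acute 7 d (log2 fold change -1.54 ± 0.26, edgeR adjusted p = 0.000299). Gfap, a filament protein by which HSCs are recognised, was at 6.90, 4.53, 8.16 and 3.92 CPM in chronic 24 h and 14.2, 18.5, 17.1 and 18.6 CPM in acute 7 d (log2 fold change -1.54 ± 0.24, edgeR adjusted p = 0.000152). All 3 genes were apart in every library. Colec11, a collectin secreted by HSCs, averaged 430.02 ± 127 CPM against 1185 ± 237 CPM (log2 fold change -1.46 ± 0.23, edgeR adjusted p = 0.000184). Colec10, its relative, averaged 341 ± 76.4 CPM against 889 ± 153 CPM (log2 fold change -1.38 ± 0.26, edgeR adjusted p = 0.000766). Ppara, a fatty acid-sensing nuclear receptor, was at 7.79, 4.53, 4.03 and 2.56 CPM in chronic 24 h and 14.9, 11.1, 9.42 and 10.3 CPM in acute 7 d (log2 fold change -1.29 ± 0.34, edgeR adjusted p = 0.012). The Ppara call was lost without chronic 24 h replicate 4 (log2 fold change -1.09, edgeR adjusted p = 0.0557). The 2 members called higher encode intermediate filaments. Nes, nestin, was at 205, 354, 226 and 444 CPM in chronic 24 h and 90.2, 89.9, 78.9 and 98.3 CPM in acute 7 d (log2 fold change 1.78 ± 0.25, edgeR adjusted p = 4.67e-05). Des, desmin, was at 640.1, 643, 706 and 856 CPM in chronic 24 h and 375, 333, 356 and 255 CPM in acute 7 d (log2 fold change 1.11 ± 0.17, edgeR adjusted p = 0.000143). The Des call was lost without chronic 24 h replicate 4 (log2 fold change 0.99, edgeR adjusted p = 0.00136).

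Not all genes of the resting cell were called. Lrat, which esterifies retinol for storage and is a common HSC marker, was at 1284, 974, 1003 and 1088 CPM in chronic 24 h and 1371, 1803, 683 and 1411 CPM in acute 7 d, overlapping and not called (log2 fold change -0.28 ± 0.31, edgeR adjusted p = 0.609). Ngfr, the p75 neurotrophin receptor, was at 30.7, 31.2, 26.2 and 35.4 CPM in chronic 24 h and 24.6, 27.7, 79.7 and 70.96 CPM in acute 7 d. Acute 7 d replicates 3 and 4 lay above all others and replicates 1 and 2 within or below the chronic 24 h range (log2 fold change -0.72 ± 0.40, edgeR adjusted p = 0.245). Of 20 retinoid genes 0 were higher and 2 lower (10%, against 4.87% of all genes, median -0.19). With the macrophage score as a term, 1 was lower. Rarres1 is a retinoic acid-responsive gene (log2 fold change -2.73 ± 0.70, edgeR adjusted p = 0.00953). Cyp26a1, which degrades retinoic acid, was near the detection limit at 0, 0, 0 and 0.320 CPM in chronic 24 h and 1.78, 2.71, 0.805 and 1.92 CPM in acute 7 d (log2 fold change -4.04 ± 1.15, edgeR adjusted p = 0.0205). The Cyp26a1 call was lost without chronic 24 h replicates 2 and 3 (log2 fold change -3.74 to -3.61, edgeR adjusted p = 0.0545 to 0.0656), in the libraries of higher depth alone (log2 fold change -3.40, edgeR adjusted p = 0.138) and with the macrophage score as a term (log2 fold change -3.57, edgeR adjusted p = 0.0682).

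**Figure D4:**
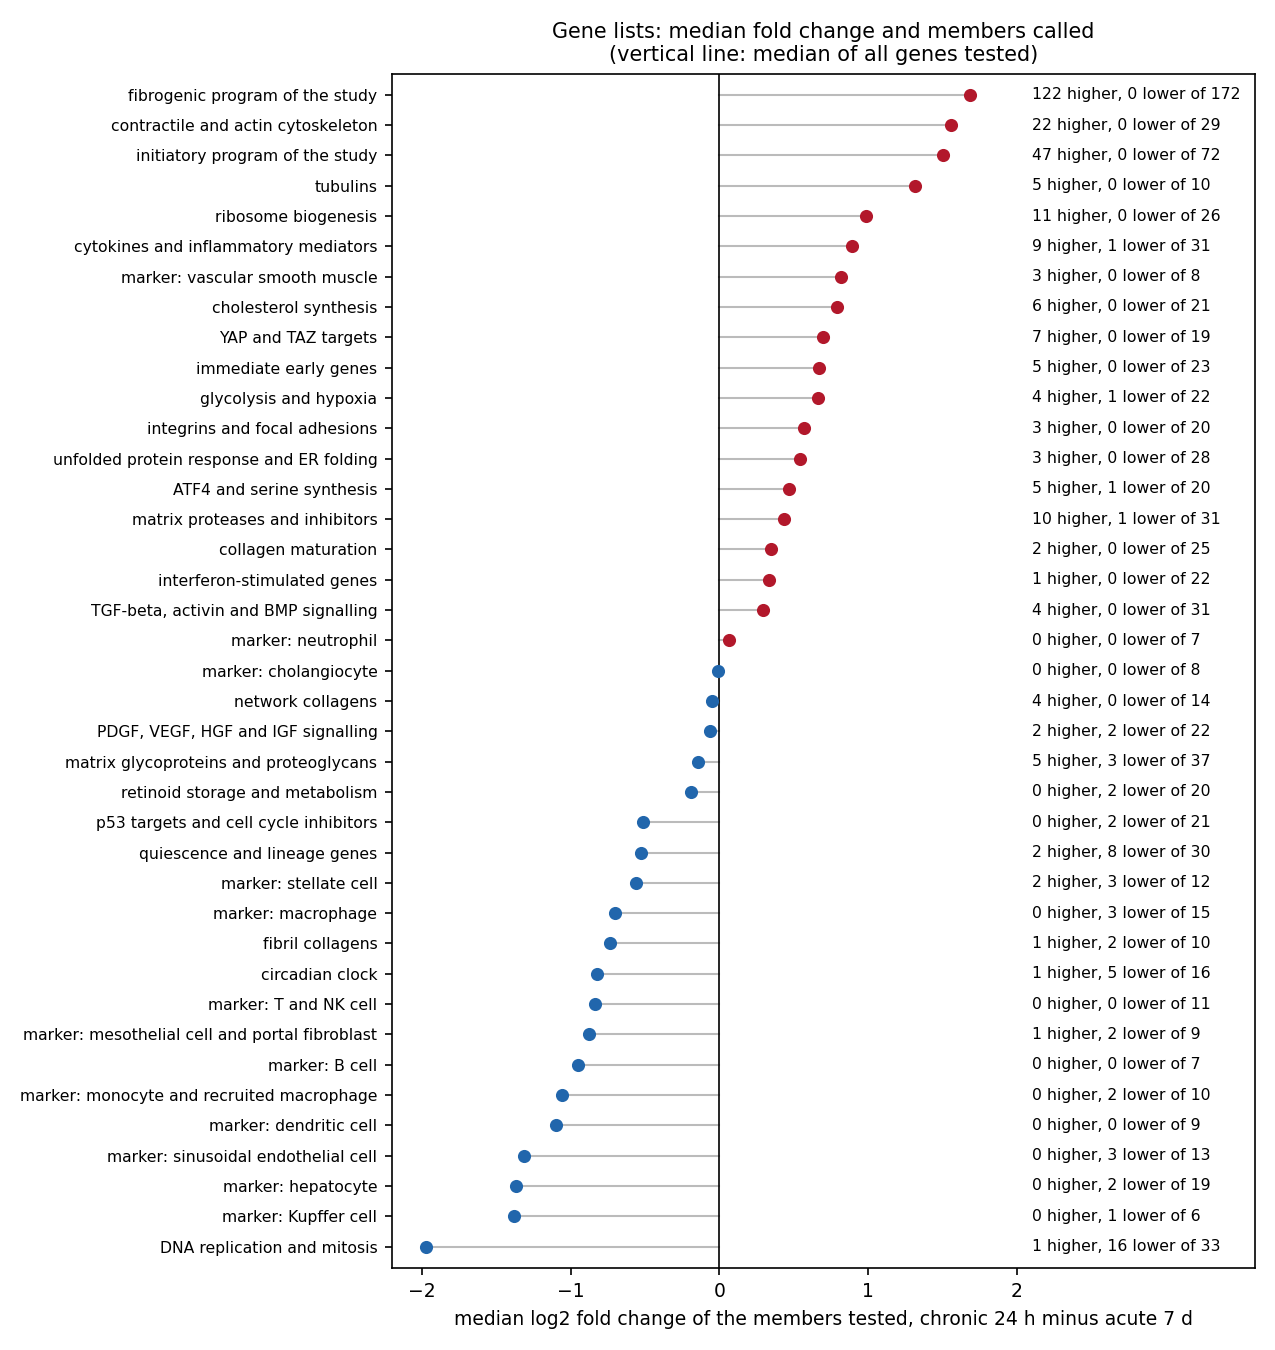
The x axis gives the median log2 fold change of the members tested of each of 39 gene lists, with the numbers called written at the right. The contractile list (1.56) and the study's fibrogenic list (1.69) lie at the top and DNA replication and mitosis (-1.97) at the bottom, and lists of other cell types lie mostly below 0.

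The study's own lists were also read in this comparison. Of 172 genes tested of its fibrogenic program, 122 were higher and 0 lower (median 1.69). Of 72 genes of its initiatory program 47 were higher and 0 lower (median 1.504). The study chose the fibrogenic program with the chronic 24 h libraries, so its count is not independent evidence of that direction. The initiatory program was chosen from cells taken 24 h after a single injection, healthy cells and cultured cells, none of them among the 8 libraries compared. Of the 39 genes in both programs 35 were higher, of the 133 in the fibrogenic program alone 87, and of the 33 in the initiatory program alone 12. Megf11, a receptor of the fibrogenic program, was at 6.60, 17.02, 8.59 and 7.20 CPM in chronic 24 h and 0.162, 0.246, 0.644 and 0.460 CPM in acute 7 d (log2 fold change 4.66 ± 0.78, edgeR adjusted p = 0.000303). Gpr39, a zinc-sensing receptor of the initiatory program, was apart by less than 2-fold (log2 fold change 0.93 ± 0.17, edgeR adjusted p = 0.000832).

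Clock genes split the libraries within each group as well as between the groups. Of 16 circadian genes 5 were lower and 1 was higher (median -0.82). The lower count was 2 among the libraries of higher depth and 3 without chronic 24 h replicate 2 or acute 7 d replicates 1 and 2. The higher count was 0 without chronic 24 h replicates 3 and 4 or acute 7 d replicate 1 and 2 without acute 7 d replicate 3. Dbp, a factor whose RNA swings widely over the day, was at 2.40, 3.29, 18.3 and 23.1 CPM in chronic 24 h and 128, 87.8, 51.8 and 39.8 CPM in acute 7 d. All chronic 24 h libraries lay below acute 7 d, the 2 of lower depth the most (log2 fold change -2.68 ± 0.73, edgeR adjusted p = 0.0151), and Dbp did not pass among the libraries of higher depth (-1.91, edgeR adjusted p = 0.147). Per3, a repressor of the clock, was at 2.10, 2.20, 7.72 and 7.20 CPM in chronic 24 h and 61.4, 50.7, 13.4 and 16.5 CPM in acute 7 d. Replicates 1 and 2 were apart from replicates 3 and 4 in both groups (log2 fold change -2.85 ± 0.51, edgeR adjusted p = 0.00061). Hlf, which like Dbp binds D-boxes, was lower too (log2 fold change -2.88 ± 0.58, edgeR adjusted p = 0.00169), as was Tef of the same family (log2 fold change -1.44 ± 0.42, edgeR adjusted p = 0.0219). The Tef call was lost without chronic 24 h replicates 1 and 2 or acute 7 d replicates 1 and 2 (log2 fold change -1.32 to -1.21, edgeR adjusted p = 0.0545 to 0.0712) and in the libraries of higher depth alone (log2 fold change -0.99, edgeR adjusted p = 0.234). Per2, a partner of Per3, was lower (log2 fold change -2.06 ± 0.58, edgeR adjusted p = 0.0185). The Per2 call was lost without chronic 24 h replicate 2 or acute 7 d replicates 1 and 2 (log2 fold change -1.82 to -1.53, edgeR adjusted p = 0.0548 to 0.0865) and in the libraries of higher depth alone (log2 fold change -1.61, edgeR adjusted p = 0.166). Clock, the activator, was the member called higher (log2 fold change 1.06 ± 0.22, edgeR adjusted p = 0.00174). The Clock call was lost without chronic 24 h replicates 3 and 4 or acute 7 d replicate 1 (log2 fold change 0.88 to 0.98, edgeR adjusted p = 0.00967 to 0.0109) and with the macrophage score as a term (log2 fold change 0.80, edgeR adjusted p = 0.0205). The time of day of collection is not given in the sources used here, and its part was not tested.

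Among called genes with a mean log2 CPM of 3 or more and groups apart, the 12 with the strongest decreases included 8 that are described next. Of them Cyp2e1 is on the hepatocyte list. Cyp2e1, the enzyme that activates CCl4, was at 5.85, 2.61, 0.702 and 1.28 CPM in chronic 24 h and 77.6, 63.7, 210.3 and 172 CPM in acute 7 d (log2 fold change -5.72 ± 0.81, edgeR adjusted p = 7.03e-05). Thrsp, a regulator of lipid synthesis, was at 1.05, 2.06, 1.23 and 1.92 CPM in chronic 24 h and 151, 58.97, 24.6 and 78.1 CPM in acute 7 d (log2 fold change -5.63 ± 0.93, edgeR adjusted p = 0.000299). Car3, a carbonic anhydrase of liver, fat and muscle, was at 14.8, 20.6, 8.33 and 9.84 CPM in chronic 24 h and 370.5, 162, 219 and 381 CPM in acute 7 d (log2 fold change -4.41 ± 0.80, edgeR adjusted p = 0.000678). Serpina6 encodes corticosteroid-binding globulin (log2 fold change -4.47 ± 1.05, edgeR adjusted p = 0.00564) and Rgn regucalcin (log2 fold change -4.02 ± 0.68, edgeR adjusted p = 0.000466). Bhmt is a methyltransferase of methionine recycling (log2 fold change -3.28 ± 0.77, edgeR adjusted p = 0.00519), Upp2 a uridine phosphorylase (log2 fold change -3.21 ± 0.51, edgeR adjusted p = 0.000173) and Slco1b2 a transporter of bile acids and drugs (log2 fold change -3.17 ± 0.72, edgeR adjusted p = 0.00501).

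The hepatocyte list as a whole had 2 of 19 members lower (10.5%, against 4.87% of all genes), Cyp2e1 and Hpd, and 0 higher. Its median was -1.36. Hpd is an enzyme of tyrosine breakdown (log2 fold change -2.45 ± 0.72, edgeR adjusted p = 0.0238). The Hpd call was lost without chronic 24 h replicates 3 and 4 or acute 7 d replicate 1 (log2 fold change -2.34 to -2.13, edgeR adjusted p = 0.0524 to 0.0829). The count of the list was 1 without chronic 24 h replicates 3 and 4 or acute 7 d replicate 1 and 5 without chronic 24 h replicate 1. Alb and Serpina1b, secreted hepatocyte proteins, did not pass (log2 fold change -1.14 ± 0.78, edgeR adjusted p = 0.356, and log2 fold change -0.38 ± 0.24, edgeR adjusted p = 0.319). The part of hepatocyte RNA in these decreases was not tested.

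Fbln5, Nnat, Jmjd8 and Hbb-bs were the other 4 of these 12. Nnat, neuronatin, an ER membrane proteolipid, was at 5.40, 6.31, 6.31 and 2.72 CPM in chronic 24 h and 68.9, 39.7, 62.6 and 41.00 CPM in acute 7 d (log2 fold change -3.36 ± 0.48, edgeR adjusted p = 6.26e-05). Jmjd8, which overlaps another gene on the opposite strand, was at 5.10, 5.49, 5.52 and 3.68 CPM in chronic 24 h and 138, 22.3, 159 and 125 CPM in acute 7 d. Acute 7 d replicate 2 was far below the other 3 (log2 fold change -4.49 ± 1.38, edgeR adjusted p = 0.0304). The Jmjd8 call was lost without chronic 24 h replicates 1, 2, 3 and 4 or acute 7 d replicates 1 and 3 (log2 fold change -4.56 to -4.27, edgeR adjusted p = 0.0513 to 0.0838) and in the libraries of higher depth alone (log2 fold change -4.61, edgeR adjusted p = 0.168). Hbb-bs is a beta-globin of red cells (log2 fold change -3.09 ± 1.03, edgeR adjusted p = 0.0455). The Hbb-bs call was lost without chronic 24 h replicates 1, 2, 3 and 4 or acute 7 d replicates 1 and 2 (log2 fold change -3.30 to -2.48, edgeR adjusted p = 0.0644 to 0.132) and in the libraries of higher depth alone (log2 fold change -2.96, edgeR adjusted p = 0.0599). Of the 12 strongest increases picked in the same way 3 are not yet described. Hspb7, a small heat shock protein of muscle, was at 20.4, 19.8, 87.5 and 86.8 CPM in chronic 24 h and 5.18, 4.68, 5.47 and 2.15 CPM in acute 7 d (log2 fold change 3.62 ± 0.72, edgeR adjusted p = 0.00153). Jph2, which couples surface and internal calcium membranes in muscle, was at 19.9, 28.96, 53.5 and 57.8 CPM in chronic 24 h and 2.35, 5.50, 4.11 and 4.29 CPM in acute 7 d (log2 fold change 3.30 ± 0.51, edgeR adjusted p = 0.000152). Rin1, a Ras effector, was at 26.5, 43.8, 39.6 and 54.8 CPM in chronic 24 h and 5.26, 4.68, 4.19 and 2.07 CPM in acute 7 d (log2 fold change 3.35 ± 0.43, edgeR adjusted p = 2.39e-05).

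Some macrophage genes were lower in chronic 24 h, and more were called in the libraries of higher depth. Of 15 macrophage markers 3 were lower and 0 higher (median -0.70). The count was 8 among the libraries of higher depth and 5 without chronic 24 h replicate 1. Lyz2, lysozyme 2, was at 1490.4, 2336, 280.1 and 717 CPM in chronic 24 h and 3467, 5047, 8584 and 4523 CPM in acute 7 d. Chronic 24 h replicates 3 and 4 lay furthest below acute 7 d (log2 fold change -2.16 ± 0.51, edgeR adjusted p = 0.00521, and -3.45, edgeR adjusted p = 0.00343 in the libraries of higher depth). Adgre1, which encodes F4/80, was lower too (log2 fold change -1.71 ± 0.43, edgeR adjusted p = 0.00851). Tyrobp is an adaptor of myeloid receptors (log2 fold change -1.31 ± 0.42, edgeR adjusted p = 0.0389). The Tyrobp call was lost without chronic 24 h replicates 3 and 4 or acute 7 d replicates 3 and 4 (log2 fold change -1.31 to -0.97, edgeR adjusted p = 0.0646 to 0.156) and with the macrophage score as a term (log2 fold change -0.61, edgeR adjusted p = 0.177). Tyrobp is itself among the 15 markers averaged in that score, so a smaller change with this term is partly built in. Ctss, cathepsin S, was at 369, 422, 79.7 and 123 CPM in chronic 24 h and 373, 512, 992 and 568 CPM in acute 7 d, overlapping through chronic 24 h replicate 2 (log2 fold change -1.30 ± 0.47, edgeR adjusted p = 0.0673). Ctss was called lower without chronic 24 h replicates 1 and 2 (log2 fold change -1.68 to -1.55, edgeR adjusted p = 0.0338 to 0.0455) and in the libraries of higher depth alone (log2 fold change -2.61, edgeR adjusted p = 0.00678). Gpnmb, a glycoprotein of scar-associated macrophages that HSCs can also make, was at 556, 933, 86.1 and 100.2 CPM in chronic 24 h and 423, 1161, 1728 and 494 CPM in acute 7 d. It showed the same split (log2 fold change -1.18 ± 0.73, edgeR adjusted p = 0.299, and -3.37, edgeR adjusted p = 0.0273 in the libraries of higher depth). With the macrophage score as a term, 567 genes were higher and 790 lower. The part of macrophage RNA in the other differences was not tested beyond this.

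Lists of other cells are short, and 4.87% of all genes were called lower. Kupffer cell markers had 1 of 6 lower (16.7%), Clec4f (log2 fold change -2.11 ± 0.71, edgeR adjusted p = 0.0462, list median -1.38). The Clec4f call was lost without chronic 24 h replicates 1, 3 and 4 or acute 7 d replicates 3 and 4 (log2 fold change -2.24 to -1.43, edgeR adjusted p = 0.061 to 0.197) and with the macrophage score as a term (log2 fold change -0.80, edgeR adjusted p = 0.24). Of 10 markers of monocytes and recruited macrophages 2 were lower (20%, median -1.06), Ccr2 and Plac8 (log2 fold change -1.63 ± 0.42, edgeR adjusted p = 0.0101, and log2 fold change -1.66 ± 0.43, edgeR adjusted p = 0.0109). Sinusoidal endothelial markers had 3 of 13 lower (23.1%, median -1.31), Clec4g, Tek and Cdh5, and 1 with the macrophage score as a term, when Clec4g was also lost (log2 fold change -0.93, edgeR adjusted p = 0.0982). They summed to 101 to 303 CPM in chronic 24 h and 292.5 to 821 CPM in acute 7 d. The Cdh5 call was lost without chronic 24 h replicates 1 and 3 or acute 7 d replicate 4 (log2 fold change -1.29 to -0.89, edgeR adjusted p = 0.0828 to 0.201), in the libraries of higher depth alone (log2 fold change -1.45, edgeR adjusted p = 0.164) and with the macrophage score as a term (log2 fold change -0.82, edgeR adjusted p = 0.269). Mesothelial and portal fibroblast markers had 1 higher, Thy1, and 2 lower (22.2%), Clec3b and Entpd2, of 9 (median -0.87). The Thy1 call was lost without chronic 24 h replicates 3 and 4 or acute 7 d replicates 1, 2 and 3 (log2 fold change 1.13 to 1.41, edgeR adjusted p = 0.0605 to 0.119). Stellate cell markers had 2 higher, Des and Pdgfrb, and 3 lower, Colec10, Colec11 and Lhx2, of 12 (median -0.56). No gene was called among 7 neutrophil markers, 7 markers of B cells, 8 of cholangiocytes, 9 of dendritic cells and 11 of T and NK cells. The lower count of the T and NK cell list was 1 without chronic 24 h replicate 1.

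The other 5 groups place these levels. Acta2 averaged 3.13 ± 2.69 CPM in healthy HSCs, 234 ± 77.3 CPM at acute 24 h, 341 ± 188 CPM at acute 72 h and 111 ± 41.1 CPM at acute 7 d (mean ± SD, n = 3 libraries at acute 24 h and 4 elsewhere). It averaged 1545 ± 1062 CPM at chronic 24 h, 11.2 ± 13.98 CPM at chronic 72 h and 4.97 ± 2.34 CPM at chronic 14 d. Its mean was thus highest at chronic 24 h, with a spread that reached down into the ranges of acute 24 h and 72 h. It was lowest in healthy cells and at chronic 14 d, whose ranges overlapped with each other and with chronic 72 h. The contractile list as a whole was not particular to chronic 24 h. Its summed level averaged 20003 CPM at acute 24 h (19342 to 21055) and 20958 CPM at chronic 24 h (13362 to 27614). Summed tubulins averaged 5178 CPM at acute 24 h and 3733 CPM at chronic 24 h.

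Col1a1 had another order than Acta2. It averaged 230.4 ± 74.9 CPM in healthy cells, 565 ± 45.8 CPM at acute 24 h, 3914 ± 1891 CPM at acute 72 h and 9357 ± 3364 CPM at acute 7 d. After the 4-week course it was at 5648 ± 1151 CPM at 24 h, 4228 ± 1014 CPM at 72 h and 623 ± 227 CPM at 14 d. The Col1a1 ranges of chronic 24 h, chronic 72 h and acute 72 h overlapped.

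Il11 was highest and Fbln5 lowest in the 2 groups taken 24 h after an injection. Il11 averaged 131 ± 2.19 CPM at acute 24 h and 17.9 ± 8.80 CPM at chronic 24 h, and from 0.233 ± 0.277 to 3.09 ± 1.66 CPM in the other groups. Fbln5 averaged 32.7 ± 21.1 CPM and 58.2 ± 24.4 CPM in those 2 groups and 579 ± 37.3 CPM in healthy cells. Ntm was highest in healthy cells, at 157 ± 31.8 CPM, and lowest at chronic 24 h, at 6.52 ± 1.31 CPM. Cenpf was highest at acute 72 h, with 69.8 ± 19.1 CPM, and lowest at chronic 24 h, with 0.842 ± 1.03 CPM. These levels are given side by side, without a test.

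**Figure D5:**
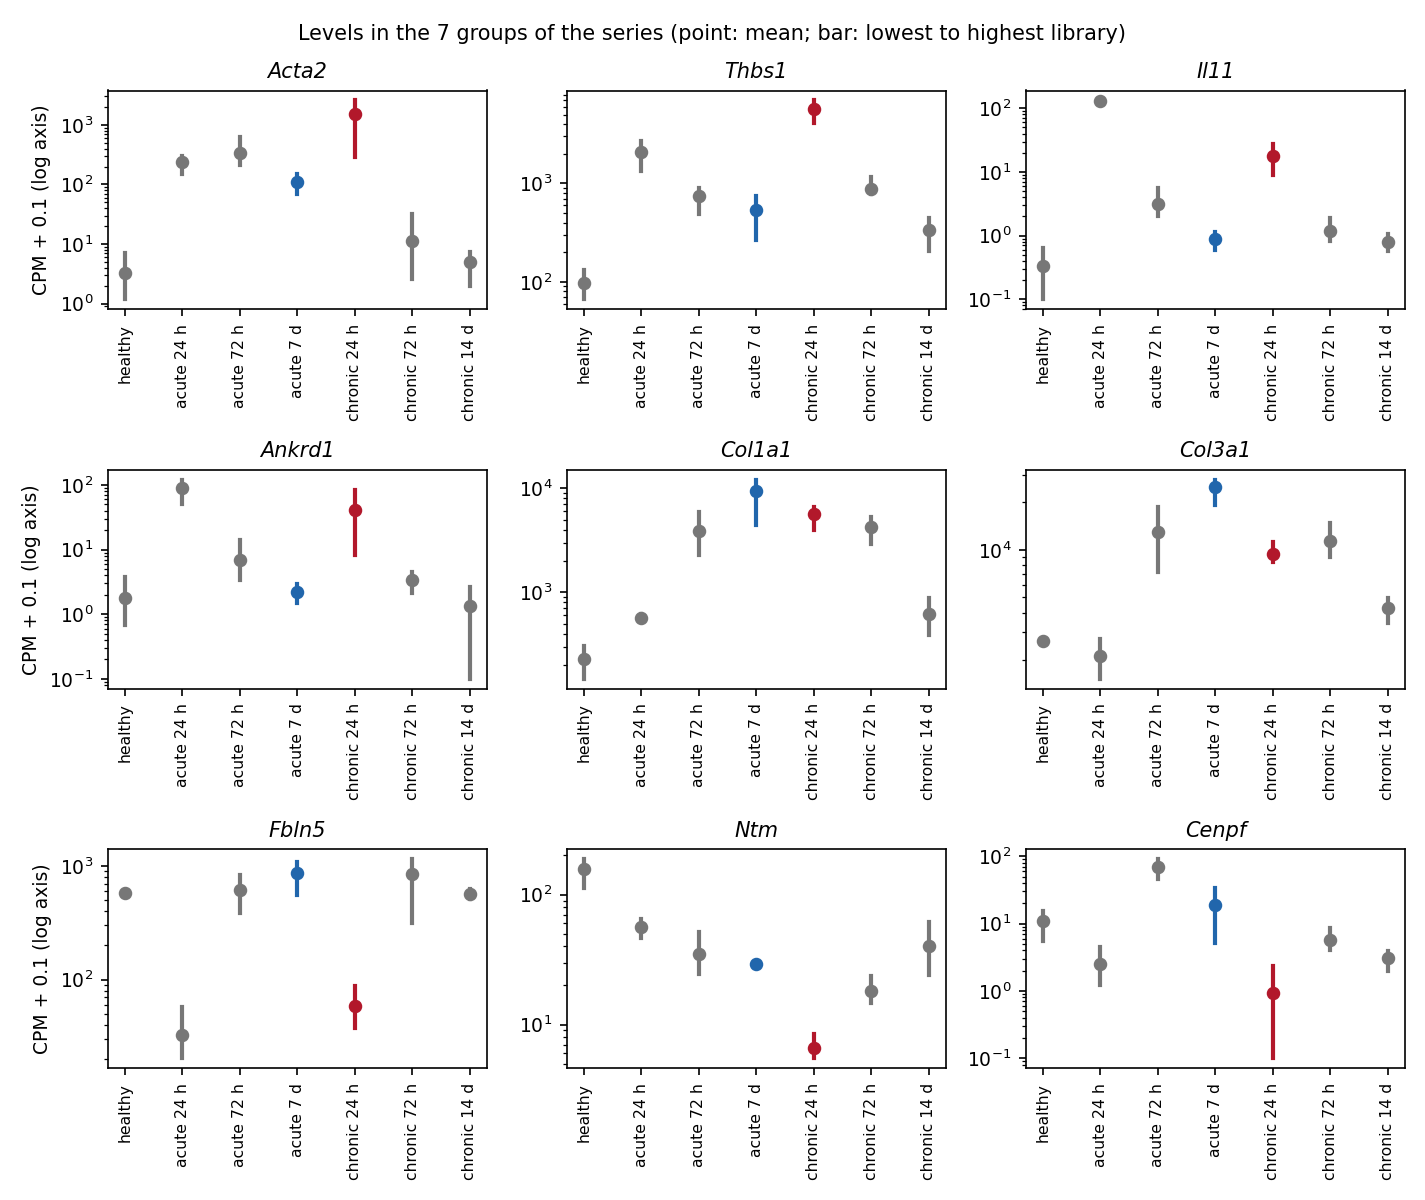
Levels of 9 genes in the 7 groups of the series, as the mean CPM (point) and the lowest to highest library (bar) on log axes with 0.1 added. Acta2, Thbs1, Il11 and Ankrd1 are high at chronic 24 h (red) and low at acute 7 d (blue), Col1a1 and Col3a1 have their highest mean at acute 7 d, and Fbln5, Ntm and Cenpf are low at chronic 24 h.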

How the data were processed

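Bulk RNA-seq of HSCs was analysed from the table of whole-number counts per Ensembl gene that the authors deposited for the 27 libraries. Per the study's methods, single-end reads were aligned with STAR to GRCm38.p6 and assembled with StringTie; the tool versions, strandedness and the step to counts are not given in the sources used here, and Balb/c reads were mapped to a C57BL/6J genome. Libraries were grouped by their labels. Counts were fitted with edgeR 4.0.16 in R 4.3.3 (TMM scaling, filterByExpr, quasi-likelihood test) over all 27 libraries with 1 mean per group and 20 residual degrees of freedom, Benjamini-Hochberg adjustment ran over the 18758 genes tested, and genes were called at an adjusted p below 0.05 and over 2-fold. CPM are TMM-scaled, mean ± SD runs over libraries, and a gene at 0 in a group was bounded with 3 counts per library. Depth limits low genes: 1 count is worth about 0.08 to 0.15 CPM, and intervals for counting error are not given because the replicate spread exceeds it. No 2 replicates of a group agreed within sampling noise (12 pairs tested).

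The groups and gene lists were chosen with earlier results of these data known. Genes named are the 12 highest and 12 lowest called genes (mean log2 CPM over the 8 libraries of 3 or more, groups apart), up to 4 called members of each of 39 lists, uncalled members for contrast, fixed names, and a few chosen after their values were seen (members with a CArG box, and members that complete a count of 5 or fewer). Same-numbered libraries of the 2 groups did not deviate together (Pearson r across genes -0.0455 to 0.0088, against -0.0558 to 0.0708 for different numbers), so numbers were not used as pairs. Alternatives covered scaling, DESeq2 1.42.0, filters, thresholds, depth, a macrophage score, a replicate block and leaving out libraries. A few members of the lists are not reported here by name. The scripts were tested on simulated data. Of 100 genes changed there by a log2 of 2, 76 were called, and of 100 changed by 1.5, 58. Besides them 4 unchanged genes were called. A gene not called may thus still differ. Promoter windows came from RefSeq (GRCm38.p6), and figures were drawn with matplotlib 3.10.9.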

Additional observations from a re-analysis of the deposited data

Results flagged for a closer look

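In the groups of 4 libraries behind the 167 genes named, 334 sets of values were searched for a library whose gap to its nearest neighbour exceeded Dixon's 95% value, and 20 were found; chance gives about 1 in 20. Among acute 7 d libraries, replicate 1 was low for Ccn2 (45.3 CPM) and high for Serpina6 (88.0 CPM) and Plac8 (286.5 CPM). Replicate 2 was low for Jmjd8 (22.3 CPM), Slco1b2 (27.6 CPM) and Bst2 (43.3 CPM). Replicate 3 was high for Mmp10 (0.644 CPM, the others at 0) and Fjx1 (4.99 CPM). Replicate 4 was low for Col1a2 (4975 CPM) and Col15a1 (30.2 CPM) and high for Hyou1 (87.8 CPM, the others at 17.7 to 20.01 CPM).

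Among chronic 24 h libraries, replicate 1 was low for Col11a1 (0.150 CPM), Col15a1 (99.7 CPM) and Lif (7.20 CPM), and high for Colec11 (619 CPM). Replicate 2 was low for Kcnab1 (4.94 CPM). Replicate 3 was high for Ncl (301 CPM) and low for Pdk1 (3.25 CPM) and Ccnb1 (0 CPM). Replicate 4 was high for Cyp26a1 (0.320 CPM, the others at 0). Where leaving out such a library ended a call, the value stands beside the gene in the report.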

How the results depend on the processing

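Against 620 genes higher and 914 lower, 1386 and 1467 passed with no fold minimum, 86 and 147 in a test against a 2-fold minimum, 478 and 1118 with scaling by library size alone, 659 and 1163 in DESeq2, 676 and 1048 in the libraries of higher depth, 567 and 790 with a macrophage score as a term, and 459 and 778 without a filter on low counts. Leaving out 1 library gave 453 (without chronic 24 h replicate 4) to 708 (without chronic 24 h replicate 1) higher and 661 to 1065 lower genes. Leaving out both chronic 24 h libraries of lower depth, an alternative chosen after seeing the data, gave 758 and 1153. With the replicate number as a block there were 599 higher and 894 lower genes, and 720 and 1007 with depth class as a further term; the labels do not say that equal numbers share anything.

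Of 4004 values of the 167 genes named under alternatives, 3567 kept their direction and their side of the threshold, 363 lost the threshold, 63 gained it and 11 changed sign, all in 3 genes that were not called. Gbp2 was at -0.58 with depth class as a term (-0.58 with the block too), -1.03 in the libraries of higher depth and -1.01 without those of lower depth, and between -0.74 and 1.12 leaving out 1 library. Gbp7 was at 0.13 with the macrophage score and -0.91 to 0.14 leaving out 1 library, and Actg1 at -0.39 to 0.43. Counts of called members moved by over 1.5 times in 160 of 1716 list values, 35 of them under the test against a 2-fold minimum. The cause of these changes was not tested. Depth limits the genes at a few CPM, such as Il11, Cyp26a1 and the mitotic genes, and 2 chronic 24 h libraries of higher depth leave little to estimate their spread. Injections, time and age cannot be told apart.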
